A study of Mus musculus and Mus musculus musculus x Mus musculus castaneus with 52 samples.

Results

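The genes described here are 37 fibroblast and extracellular matrix genes, transcripts by which mesenchymal cells and the fibroblast feeder layers of stem cell cultures are known. They were taken by name from a list, with no threshold on their level, but the list was chosen with earlier results of these data known. All 37 were present among the 16687 genes of the expression table. By role they comprise 5 fibrillar collagens, 4 other collagens, 11 glycoproteins and microfibril proteins, 3 small proteoglycans, 5 crosslinking and turnover enzymes, 2 transcription factors, 3 surface proteins and receptors and 4 cytoskeletal genes.

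Fibroblasts secrete collagen chains that assemble into fibrils outside the cell, where lysyl oxidases crosslink them and small proteoglycans such as decorin and lumican bind them. Feeder layers are growth-arrested fibroblasts on which mouse pluripotent stem cells are often expanded, and RNA of a culture that still holds feeders contains their transcripts beside those of the stem cells. Pluripotent cells transcribe some matrix genes themselves, among them fibronectin, so the genes of the list need not share a source.

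RNA sequencing was done on mouse pluripotent stem cells to compare sex chromosome dosage. Of 52 samples in the series, 20 are chromatin samples (not analysed here), and the RNA table gives 24 RNA libraries, 1 for each line, passage and time. Wild-type (WT) induced pluripotent stem cells (iPSCs, reprogrammed somatic cells) were 3 male lines (LV4, LV8, LV16) and 3 female lines (LV20, LV21, LV22), each read at passage 7 (P7) and passage 13 (P13), and the series names the late female lines XO. WT embryonic stem cells (ESCs) were the female lines CM1 and CM2 and the male lines CM3 and CM7 at passage 5. A separate experiment took away LIF, a cytokine added to serum medium to maintain self-renewal, for 24 h. It held the WT female line F121, the WT male line V6.5 and 2 independent female clones labelled Dusp9+/- (heterozygous for the X-linked phosphatase gene Dusp9), each at 0 h and 24 h. Per the labels, the F121, Dusp9+/- and CM lines came from crosses of Mus musculus musculus with Mus musculus castaneus, and the LV and V6.5 lines were Mus musculus. The labels describe the withdrawal cultures as free of feeders in serum with LIF. They name male WT feeders for the chromatin samples, and the growth of the iPSC and CM cultures used for RNA is not given in the sources used here. Nothing in the labels says that libraries of 1 line at 2 passages or times are more than 1 culture each.

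The libraries held 8309171 to 14245900 reads, recovered as whole reads from the deposited values. Levels are log2 CPM (counts scaled to sequencing depth, with library sizes as scaled by the authors), on which a gene with 0 reads stands at a floor equal to 0.183 CPM. Transcript lengths were not used, so levels are compared between libraries and not between genes. Markers of pluripotent stem cells were high throughout: Pou5f1 ranged from 8.57 to 9.54 and Sox2 from 7.70 to 9.11 over the 24 libraries. Dusp9 itself stood at 5.96 and 7.43 in the libraries labelled Dusp9+/- 1 and 2 at 0 h and at 7.71 and 6.58 at 24 h, against 6.93 and 7.84 in F121. The order of the clones was thus opposite at the 2 times. The mutated stretch of Dusp9 is not given in the labels, so a level over the whole gene does not check the genotype.

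All 37 genes were read in nearly every library, with a single value at 0 reads (Lum in V6.5 at 24 h). Summed without Fn1, which alone took much of the signal, they made up 0.149% to 0.750% of reads. The lowest share was in the library labelled Dusp9+/- 1 at 0 h and the highest in LV4 at P13. LV4 at P13 held the highest level of 30 of the 37 genes, and the libraries labelled Dusp9+/- 2 at 24 h and Dusp9+/- 1 at 0 h held the lowest of 17 and 10. In bulk RNA, fewer cells of a kind and less RNA per cell cannot be told apart.

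**Figure D1:**
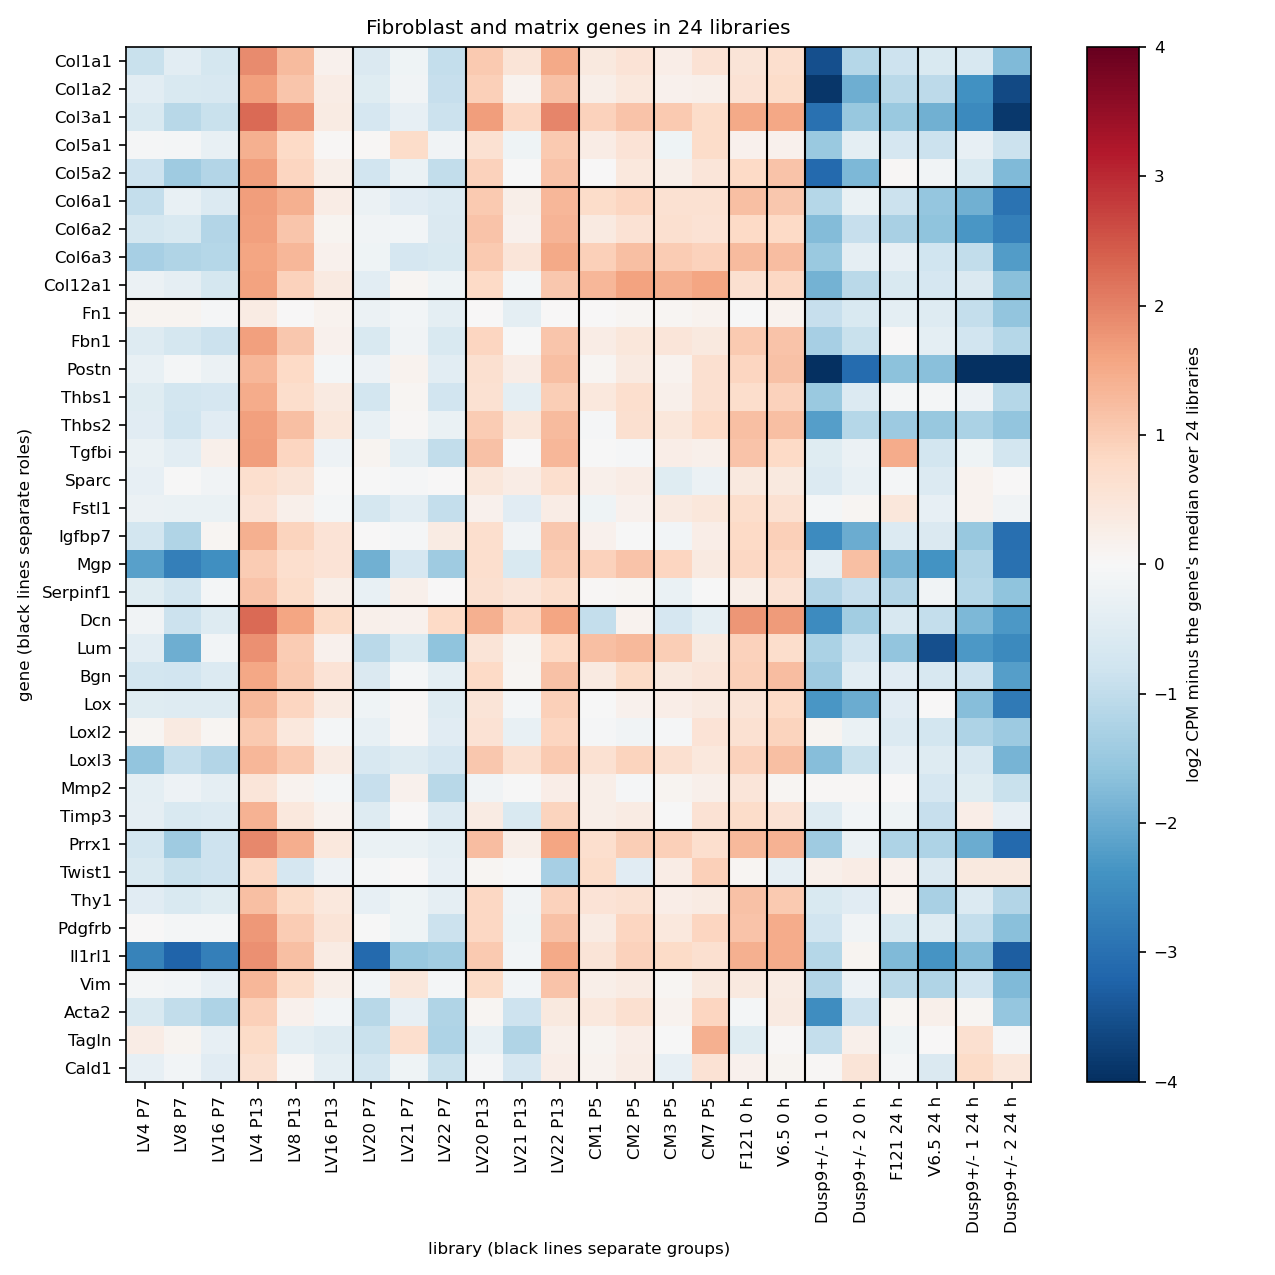
Level of each of the 37 genes (rows, ordered by role) in each of the 24 libraries (columns, ordered by group), as log2 CPM minus the gene's median over the 24 libraries. Red is above the median and blue below, and the colour scale ends at 4 in both directions. The male and female P13 columns are mostly red except LV21, and the columns labelled Dusp9+/- are mostly blue.

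The genes varied by very different amounts. Postn (periostin, a matricellular protein of fibroblasts) spanned 6.18 log2 between its lowest and highest library, Col3a1 (the type III collagen chain) 6.12 and Col1a2 (a type I collagen chain) 5.53. Sparc (osteonectin, a collagen-binding glycoprotein) spanned only 1.22. A set of 6 genes never fell below 6 log2 CPM in any library: the lowest value was 9.67 for Fn1 (fibronectin), 8.02 for Sparc, 7.83 for Thbs1 (thrombospondin 1), 6.75 for Cald1 (caldesmon), 6.60 for Vim (vimentin) and 6.09 for Fstl1 (a secreted follistatin-like protein). At the other end, apart from Lum, Postn reached -0.07, Dcn 0.06 and Igfbp7 0.28 in their lowest libraries, and these lowest libraries were all labelled Dusp9+/-.

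Promoter sequence was read for the genes with an entry in a RefSeq table of GRCm38.p6 (250 bases before to 50 after each start), which held 22 of the 37 genes in 26 entries. The sequences are the 150 bases before the start of the 3 genes that varied most between libraries and of the 3 that stood highest in their lowest library, among genes with 1 entry, so that genes picked by each rule can be read side by side. Each runs 5′ to 3′ on the gene's strand. Capitals mark CG dinucleotides and the motif TATAAA (searched on both strands).
Col3a1, chr1:45311388-45311537, plus strand: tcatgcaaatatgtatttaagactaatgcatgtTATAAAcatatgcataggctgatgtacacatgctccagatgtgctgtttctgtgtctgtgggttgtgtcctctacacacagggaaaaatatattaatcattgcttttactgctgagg
Col1a2, chr6:4505468-4505617, plus strand: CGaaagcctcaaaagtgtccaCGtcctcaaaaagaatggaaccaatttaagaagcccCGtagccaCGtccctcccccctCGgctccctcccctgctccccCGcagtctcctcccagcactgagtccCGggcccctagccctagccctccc
Prrx1, chr1:163313651-163313800, minus strand: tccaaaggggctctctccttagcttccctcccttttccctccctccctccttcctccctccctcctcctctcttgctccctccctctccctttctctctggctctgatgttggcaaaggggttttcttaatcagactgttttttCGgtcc
Sparc, chr11:55420081-55420230, minus strand: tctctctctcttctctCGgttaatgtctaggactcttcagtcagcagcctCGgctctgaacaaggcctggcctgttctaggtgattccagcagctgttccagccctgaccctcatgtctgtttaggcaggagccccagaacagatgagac
Vim, chr2:13574161-13574310, plus strand: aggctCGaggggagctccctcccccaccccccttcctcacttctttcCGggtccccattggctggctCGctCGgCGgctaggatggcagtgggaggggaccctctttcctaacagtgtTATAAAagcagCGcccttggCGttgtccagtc
Fstl1, chr16:37776905-37777054, plus strand: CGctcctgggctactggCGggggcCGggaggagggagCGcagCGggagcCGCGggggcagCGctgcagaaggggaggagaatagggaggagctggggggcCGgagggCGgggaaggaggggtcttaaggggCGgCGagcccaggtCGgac

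The stretch before Col3a1 held 0 CG and that before Prrx1 held 1, against 2 for Sparc, 7 each for Col1a2 and Vim and 13 for Fstl1. The motif began 32 bases before the start of Vim and 117 bases before that of Col3a1. Over the full 300 bases, 11 of the 26 entries of these genes (42.3%) held at most 5 CG, against 43.6% of all 32851 entries, and 6 of the 26 (23.1%) held TATAAA, against 13.6% of all entries. In 8 genes every entry held at most 5 CG. The 8 genes with few CG spanned 1.22 to 6.18 log2 between libraries (median 4.23), and the 13 genes with more than 5 CG in every entry spanned 1.66 to 5.53 (median 3.07). The ranges of both sets overlap widely, since Sparc, the steadiest gene with an entry, has few CG and Col1a2, among the most variable, has 13. These counts are a description of the letters in the window.

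From P7 to P13 the fibroblast genes rose in the male iPSC lines. Of the 37, 26 were higher at P13 and none was lower, where 7.23% of all tested genes were higher and 5.82% lower. Their median change was 1.39 log2, against -0.0029 over all genes. Called means a Benjamini-Hochberg adjusted p under 0.05 in limma, as in all comparisons below, here with n = 3 against 3 and 1 spread shared by the 12 iPSC libraries, and changes are log2 fold changes ± standard error.

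Col3a1 stood at 4.65, 4.16 and 4.37 in LV4, LV8 and LV16 at P7 and at 7.53, 7.07 and 5.58 at P13. Every P13 value lay above every P7 value, as in 17.9% of all tested genes in the male lines, and LV16 rose least. The change was 2.33 ± 0.39 (limma adjusted p = 0.00337). Col1a1, the other type I chain, went from 6.02, 6.49 and 6.20 to 8.79, 8.18 and 7.08, again with no overlap, a change of 1.78 ± 0.34 (limma adjusted p = 0.00627). Col5a2, a type V chain that nucleates fibrils, went from 4.81, 4.20 and 4.44 to 7.30, 6.47 and 5.86 (2.06 ± 0.34). Its partner chain Col5a1 changed by 0.89 ± 0.33 and did not pass (limma adjusted p = 0.0854). It was the one fibrillar collagen of 5 not called. All 4 of the other collagens were called, led by Col6a3, a chain of the beaded-filament type VI collagen, at 3.76, 3.86 and 3.92 and then 6.67, 6.41 and 5.25 (2.27 ± 0.31).

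The glycoproteins were less uniform. Mgp (matrix Gla protein, an inhibitor of mineral deposition) went from 2.60, 2.03 and 2.30 to 5.76, 5.43 and 5.31, a change of 3.19 ± 0.37 (limma adjusted p = 0.00107). Fn1 stood at 11.36, 11.37 and 11.22 and then 11.60, 11.27 and 11.39, so its groups overlapped, and its change of 0.10 ± 0.11 did not pass (limma adjusted p = 0.58). Postn went from 4.48, 4.70 and 4.54 to 6.12, 5.57 and 4.71. It did not pass either (0.89 ± 0.29, limma adjusted p = 0.0583), although the passages did not overlap, and LV16 moved least. Sparc went from 8.25, 8.56 and 8.42 to 9.24, 9.07 and 8.56 and was called with a small change of 0.55 ± 0.14 (limma adjusted p = 0.0253), although LV16 at P13 lay within the P7 range.

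All 3 small proteoglycans were called. Dcn (decorin) went from 2.43, 1.70 and 2.04 to 4.85, 4.16 and 3.33 (2.06 ± 0.35), Lum (lumican) changed by 1.85 ± 0.54 and Bgn (biglycan) by 1.73 ± 0.25. Among the enzymes, Loxl3, a lysyl oxidase-like crosslinker, went from 2.09, 2.69 and 2.48 to 4.98, 4.69 and 3.97 (2.13 ± 0.25, limma adjusted p = 0.00107) and Lox itself changed by 1.35 ± 0.25. The gelatinase gene Mmp2 (0.49 ± 0.26) and Loxl2 (0.29 ± 0.29) were not called.

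Prrx1, a homeobox factor of limb and craniofacial mesenchyme, went from 3.95, 3.23 and 3.84 to 6.60, 6.11 and 5.10 (2.26 ± 0.35, limma adjusted p = 0.00254). The other factor, Twist1, was not called (0.77 ± 0.44). The largest change of the list was that of Il1rl1, the receptor for interleukin 33, which went from 2.27, 1.76 and 2.22 to 6.76, 6.16 and 5.26 (3.98 ± 0.48, limma adjusted p = 0.00107). Thy1, a surface glycoprotein of fibroblasts and other cells, went from 4.91, 4.76 and 4.89 to 6.59, 6.14 and 5.80 (1.32 ± 0.24). None of these 3 called genes overlapped between passages.

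Of the cytoskeletal genes, Vim (the intermediate filament of mesenchymal cells) went from 8.28, 8.25 and 8.01 to 9.67, 9.09 and 8.57 and was called (0.93 ± 0.28, limma adjusted p = 0.0446). Acta2 (smooth muscle actin) went from 6.10, 5.72 and 5.48 to 7.67, 6.87 and 6.61 and was called (1.28 ± 0.32). Tagln (transgelin) went from 6.87, 6.67 and 6.25 to 7.32, 6.19 and 6.06. Its groups overlapped and its change was -0.07 ± 0.45 (limma adjusted p = 0.934), the smallest of the list. Without LV4 at P13 the male count fell from 26 to 17, and no other omission of 1 library brought it below 18.

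**Figure D2:**
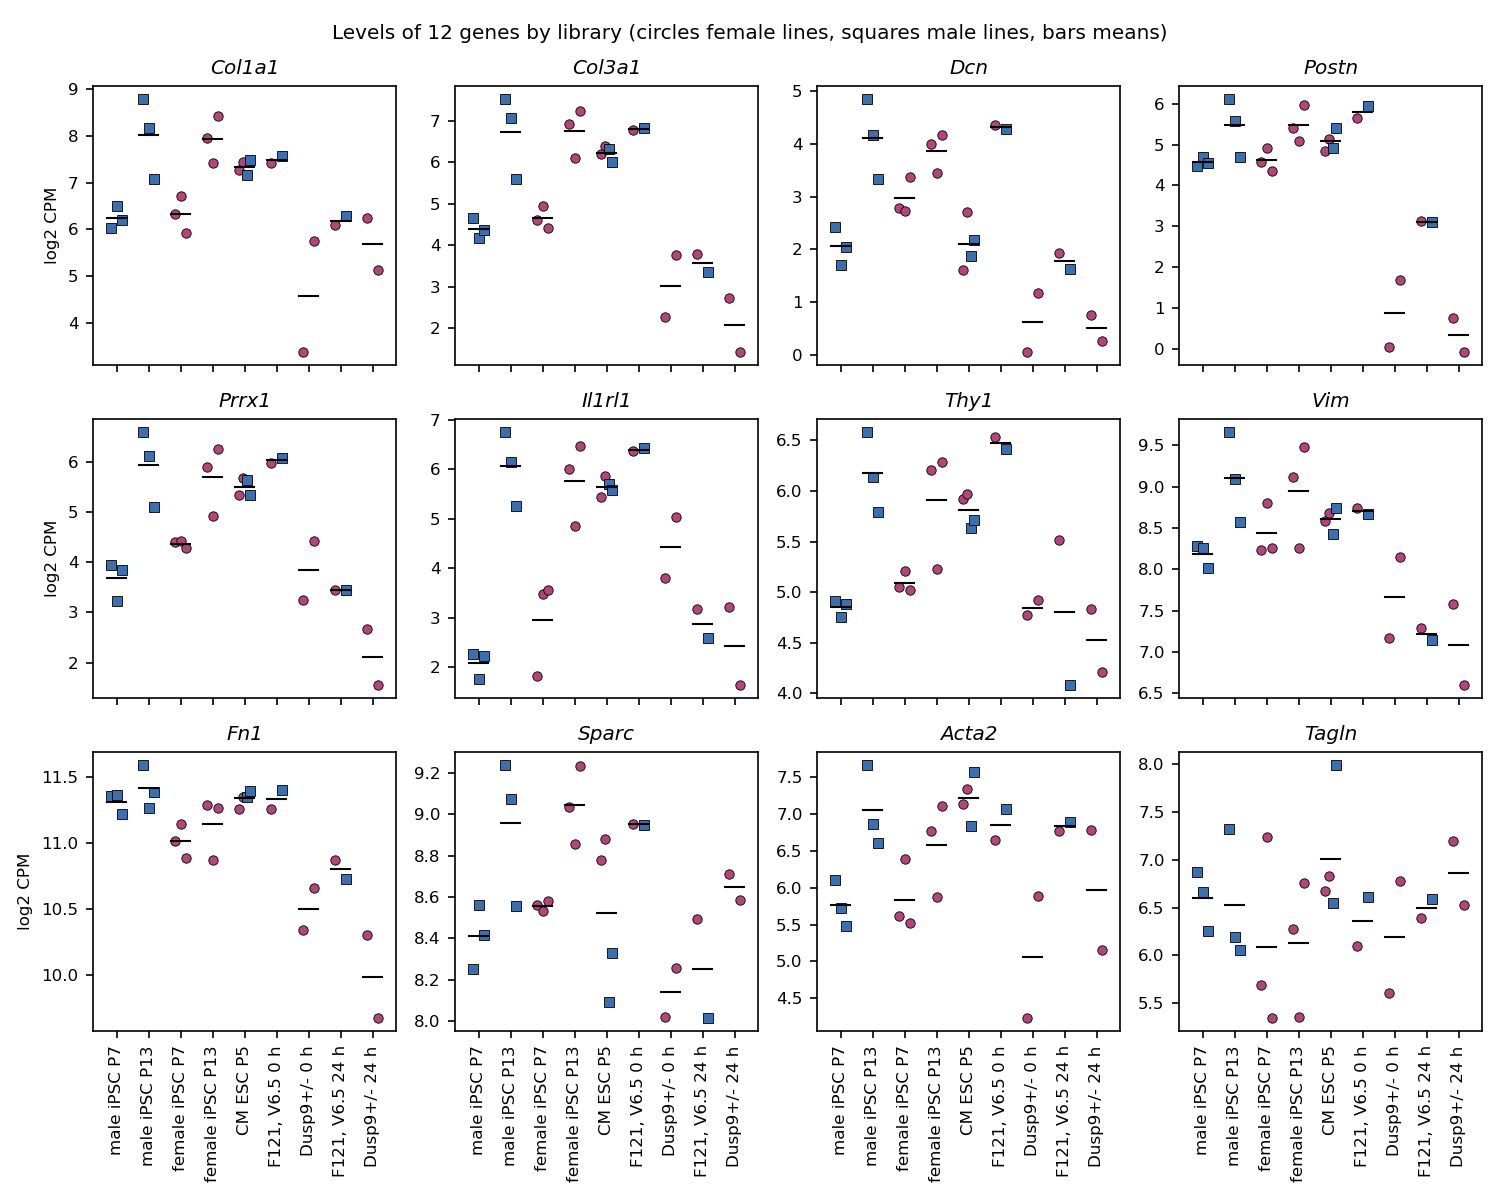
Level (log2 CPM) of 12 genes in each library, by group on the horizontal axis. Circles are female lines, squares are male lines and black bars are group means. Col3a1, Prrx1 and Il1rl1 separate P7 from P13 in both sexes, Fn1 and Tagln do not, and the V6.5 library at 24 h lies below that at 0 h for all 12 genes.

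The female lines moved in the same direction with fewer calls. Of the 37 genes 15 were higher at P13 and none was lower, where 4.32% of all tested genes were higher and 4.68% lower. The median change was 0.88 log2, against -0.0021 over all genes. The count was 8 with no filter on low values and 9 with voom weights on recovered reads. Of the called genes 14 were called in both sexes, 12 only in the male fit and 1 (Fstl1) only in the female fit. Calls in 1 fit and not in the other do not show a difference between the sexes, which was tested directly. For that difference limma called none of the 37, with 3 at an unadjusted p under 0.05, and limma with voom weights on recovered reads also called none. Of all genes, 0% were called for it. The female change was nominally smaller for 30 of the 37.

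Col3a1 at P7 stood at 4.60, 4.95 and 4.41 in the lines LV20, LV21 and LV22, followed by 6.93, 6.09 and 7.24 when read at P13 (2.10 ± 0.39, limma adjusted p = 0.00931). Col1a1 went from 6.34, 6.72 and 5.93 to 7.96, 7.42 and 8.42 (1.60 ± 0.34). For both chains the passages did not overlap, and LV21 had the lowest P13 value. Col6a3 went from 4.90, 4.40 and 4.48 to 6.11, 5.56 and 6.58 (1.49 ± 0.31) and Col5a2 from 4.87, 5.36 and 4.62 to 6.53, 5.60 and 6.77 (1.35 ± 0.34).

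Il1rl1 went from 1.82, 3.47 and 3.56 to 6.00, 4.85 and 6.47 (2.82 ± 0.48, limma adjusted p = 0.00717). At P7 it was lowest in LV20, in contrast to the other female lines. Prrx1 went from 4.40, 4.42 and 4.28 to 5.90, 4.92 and 6.25 (1.32 ± 0.35), and Thy1 from 5.05, 5.21 and 5.02 to 6.21, 5.23 and 6.29 (0.82 ± 0.24, limma adjusted p = 0.0476), where LV21 was only just above the P7 values. Mgp went from 2.83, 4.08 and 3.32 to 5.44, 4.14 and 5.76 (1.70 ± 0.37) and Loxl3 from 3.00, 3.13 and 2.98 to 4.72, 4.29 and 4.70 (1.53 ± 0.25).

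Several genes missed the threshold in the female lines. Dcn went from 2.79, 2.74 and 3.37 to 4.00, 3.44 and 4.16 (0.90 ± 0.35, limma adjusted p = 0.115), from a P7 level above that of the male lines, with no overlap between passages. Postn went from 4.57, 4.92 and 4.36 to 5.41, 5.08 and 5.97 (0.87 ± 0.29) and Sparc from 8.56, 8.53 and 8.58 to 9.03, 8.86 and 9.24 (0.48 ± 0.14, limma adjusted p = 0.0504). Both also did not overlap, yet neither passed. In the female lines 14% of all tested genes had every P13 value above every P7 value.
Vim went from 8.23, 8.81 and 8.26 to 9.12, 8.25 and 9.48 (0.52 ± 0.28), Acta2 from 5.61, 6.39 and 5.52 to 6.77, 5.87 and 7.11 (0.75 ± 0.32) and Tagln from 5.70, 7.23 and 5.35 to 6.28, 5.35 and 6.76 (0.04 ± 0.45). In all 3 of these cytoskeletal genes LV21 was higher at P7 than at P13. Fn1 stood at 11.02, 11.14 and 10.89 and 11.29, 10.88 and 11.27 (0.13 ± 0.11), a range that the passages shared.

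**Figure D3:**
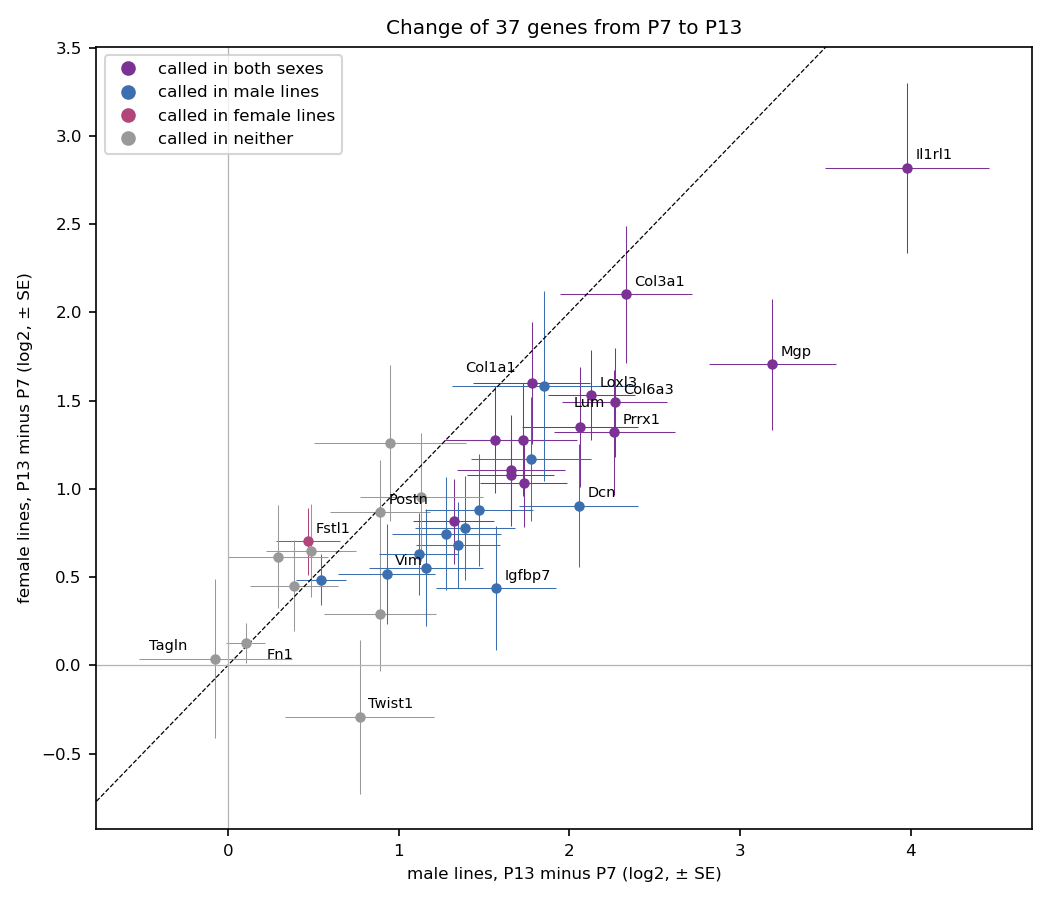
Change from P7 to P13 (log2 fold change ± standard error from limma, n = 3 against 3 in each sex) of the 37 genes in male lines (horizontal) and female lines (vertical), coloured by the fits in which each was called. The dashed line marks equal changes, and 30 genes lie below it. Il1rl1 and Mgp have the largest changes in male lines and Fn1 and Tagln lie near 0 in both.

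Line by line, the rise was broad but unequal. All 37 genes were higher at P13 in LV4 (median change 1.94) and in LV20 (1.16). The counts were 36 in LV22 (1.56), 35 in LV8 (1.44) and 34 in LV16 (0.87). LV21 differed, with 21 genes higher and 16 lower and a median of 0.15. It had the smallest change of the 6 lines for 33 genes, and LV4 the largest for 22. The median over 14242 genes lay within 0.01 of 0 in every line. The 20 genes higher at P13 in all 6 lines (12.3% of all genes were) included every fibrillar collagen but Col5a1, the 3 type VI chains, all 3 small proteoglycans, Prrx1, Thy1 and Il1rl1. In LV21 the differences were 1.37 for Il1rl1, 1.16 for Col6a3, 1.15 for Loxl3 and 1.14 for Col3a1, while Tagln differed by -1.88, Col5a1 by -0.88 and Timp3 (a metalloproteinase inhibitor) by -0.62. LV21 at P7 was also high for a P7 library, with the summed genes without Fn1 at 3131 CPM against 2127 to 2323 in the other 5. Without LV21 at P13 the female count rose from 15 to 25. It was 3 without LV20 at P13, 4 without LV22 at P13, 4 without LV20 at P7 and 4 without LV22 at P7.

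Reads assigned to Y-linked genes were also present in the female lines. These genes have X-linked relatives with which short reads can be confused, and not every one separated the sexes: Kdm5d stood at 1.17 and 1.00 in the female lines CM1 and CM2 against 0.47 in the male line CM3, and at 1.19 in F121 against 1.32 in V6.5 at 0 h. The feeders named in the labels of the chromatin samples were male. Ddx3y (an RNA helicase) at P7 stood at 2.12, 1.92 and 1.39 in the 3 female lines in the same order, followed by 3.21, 2.21 and 3.52 when read at P13, against 5.48 to 6.23 in the male iPSC libraries. Eif2s3y (a translation initiation factor) stood at 1.45, -0.72 and 0.53 and then 2.30, 1.64 and 2.38. Both were higher at P13 in every female line. The mean log2 level of the 6 genes went from -0.35, -0.97 and -0.68 to 0.37, -0.29 and 0.64, and in limma 3 of the 5 tested were higher. That mean holds values at the floor. Usp9y had 0 reads in every female iPSC library, and Uba1y had 0 in each except LV20 at P13 (1 read). LV21 at P7 had 4 reads of Eif2s3y and 0 of Kdm5d. In summed CPM without Usp9y, the female P7 libraries held 2.73% to 4.79% of the mean male iPSC level, and the P13 libraries held 9.55% in LV20, 5.00% in LV21 and 12.5% in LV22. LV21 at P13 was lowest of the 3 both for this sum and for Col3a1. The 2 orders differed among the female lines at P7. There LV21 was highest for Col3a1 (4.95), with LV20 at 4.60 and LV22 at 4.41. Its Y-linked sum without Usp9y was 5.10 CPM, between LV22 (4.69 CPM) and LV20 (8.24 CPM). A relation between Y-linked reads and Col3a1 was not tested. In the male lines none of the 5 tested was called. Their sums without Usp9y stood at 147 to 219 CPM, against 4.69 to 21.4 CPM in the female iPSC libraries. A change of the female size is small beside the spread of the male libraries, so this outcome is no contrast with the female lines.

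Macrophage genes were also higher at P13. Of 15 markers of macrophages, which settle in many primary cell preparations, 13 were higher at P13 in the male lines and 8 in the female lines, with none lower, and none was at 0 reads in any library. Their summed level was 111 to 164 CPM in male and 115 to 134 CPM in female libraries at P7 and 200 to 616 and 200 to 455 CPM at P13. Siglec1, a lectin of macrophages, changed by 4.22 ± 0.65 in male and 3.26 ± 0.65 in female lines, and Csf1r, the receptor for macrophage colony-stimulating factor, by 2.77 ± 0.48 and 2.60 ± 0.48. The part of feeder or macrophage RNA in the change of the fibroblast genes was not tested.

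**Figure D4:**
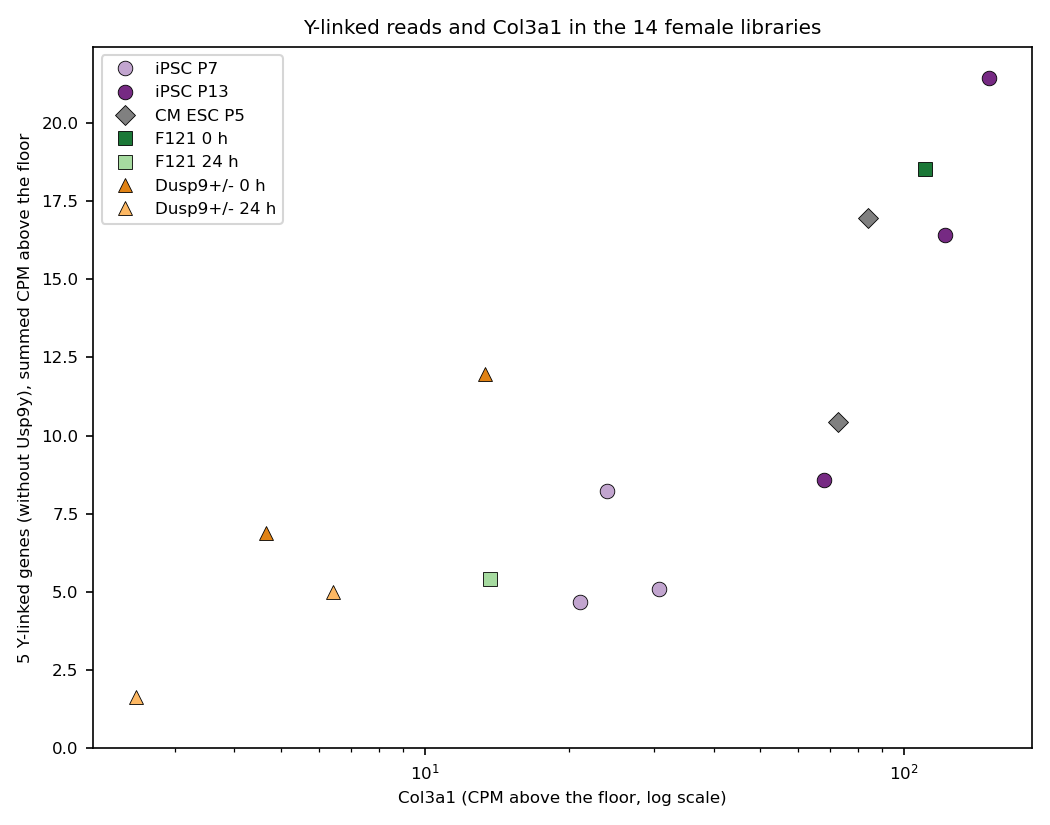
Summed CPM above the floor of 5 Y-linked genes, without Usp9y (vertical, linear) against CPM above the floor of Col3a1 (horizontal, log scale) in the 14 female libraries, 1 point per library, with symbols for each group. The iPSC libraries at P7 lie at 4.69 to 8.24 CPM of Y-linked reads and those at P13 at 8.59 to 21.4 CPM, and the F121 library stands at 18.5 CPM at 0 h and 5.42 CPM at 24 h.

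Of 51 further fibroblast and matrix genes outside the 37, 29 were higher and 2 lower in the male lines, and 19 higher and 1 lower in the female lines. The collagenase gene Mmp13 changed by 3.60 ± 0.52 and the stromelysin gene Mmp3 by 3.13 ± 0.46 in the male lines. In the female lines Cd44 (a hyaluronan receptor) changed by 1.60 ± 0.31 and Cdh11 (a cadherin of mesenchymal cells) by 1.60 ± 0.43. The collagen maturation list, which also holds enzymes that act outside the cell and Ctsk, was mixed. Of 22 genes 7 were higher and 3 lower in male lines, and 5 and 1 in female lines. Ctsk, a secreted and lysosomal collagen-degrading protease, was higher in both (2.23 ± 0.49 and 1.92 ± 0.49), while the prolyl hydroxylase chains P4ha1 and P4ha2 were lower in the male lines (-0.92 ± 0.23 and -0.80 ± 0.20). None of 12 smooth muscle contractile genes was called in either sex in limma, where 4 in male and 2 in female lines had an unadjusted p under 0.05. Of 13 basement membrane and primitive endoderm genes, Dab2 was higher in both sexes (1.38 ± 0.35 and 1.25 ± 0.35), and the male lines had 1 more gene higher (Col4a2) and 1 lower (Nid2). Of 14 TGF-beta pathway genes, 2 were higher in male lines, led by the receptor gene Tgfbr2 (1.71 ± 0.38), and 3 higher and 1 lower in female lines, led by the ligand gene Tgfb3 (1.63 ± 0.46). No endothelial or mesoderm gene was called in limma in either sex, of 6 and 3 tested. Of 12 core pluripotency genes 3 were higher in male lines, and 2 were higher and 1, Nanog, lower in female lines.

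Between female and male iPSCs no member was called at either passage. At P7 limma called none of the 37, where 4.78% of all genes were called (3.05% higher and 1.72% lower in female lines), with 6 of the 37 at an unadjusted p under 0.05. At P13 none was called, where 0.0286% of all genes were, with 1 at an unadjusted p under 0.05. Limma with voom weights called none at either passage. The median female minus male difference was 0.25 at P7 and -0.25 at P13. Mgp had the largest positive difference at P7 (1.10 ± 0.37, limma adjusted p = 0.104). Its female values all lay above its male values, as in 13.2% of all tested genes.

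CM ESCs at passage 5 held more fibroblast transcripts than iPSCs at P7. With sex as a covariate and n = 6 iPSC against 4 CM libraries, 27 of the 37 genes were lower in the iPSCs and none was higher, where 18.7% of all genes were lower and 18.5% higher. The median difference was -0.83 log2, against 0.0019 over all genes. Cell type and strain differ together here, and this comparison shares its P7 libraries with the passage comparison.

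In CM1, CM2, CM3 and CM7, Il1rl1 stood at 5.45, 5.86, 5.70 and 5.59, Col3a1 at 6.19, 6.39, 6.33 and 5.99 and Prrx1 at 5.34, 5.67, 5.64 and 5.35. The iPSC P7 libraries lay below all of these, with differences of -3.13 ± 0.31, -1.70 ± 0.13 and -1.48 ± 0.17 (limma adjusted p = 6.07e-06, 8.31e-07 and 2.61e-05). In 11.2% of all tested genes every iPSC P7 value lay below every CM value. Mgp stood at 5.68, 5.90, 5.61 and 5.11 (-2.72 ± 0.24), and Col12a1, a collagen that lies on the surface of fibrils, at 7.27, 7.55, 7.35 and 7.52 (-1.79 ± 0.12). Lum (-1.94 ± 0.40), Col6a3 (-1.88 ± 0.15) and Loxl3 (-1.57 ± 0.18) were the other large differences.

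Levels of the type I chain Col1a1 were 7.28, 7.44, 7.17 and 7.47 in the 4 CM lines (-1.06 ± 0.14), of Thy1 5.92, 5.98, 5.64 and 5.71 (-0.84 ± 0.09) and of Acta2 7.14, 7.34, 6.83 and 7.57 (-1.42 ± 0.18). All 3 were called, with no iPSC P7 value reaching the CM range. Dcn did not follow: at 1.60, 2.71, 1.89 and 2.18 it overlapped the iPSCs (0.41 ± 0.29, limma adjusted p = 0.275), and it was the one gene of the 37 with a positive difference. Postn stood at 4.85, 5.14, 4.93 and 5.41 (-0.48 ± 0.14, called), Vim at 8.58, 8.68, 8.42 and 8.74 (-0.30 ± 0.11, limma adjusted p = 0.0511) and Sparc at 8.78, 8.88, 8.09 and 8.33 (-0.04 ± 0.09). Fn1 stood at 11.26, 11.35, 11.35 and 11.40 and Tagln at 6.67, 6.83, 6.55 and 7.99, neither of them called (-0.17 ± 0.07 and -0.67 ± 0.32), and CM7 had the highest Tagln level of all 24 libraries.

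Beside these values the macrophage markers were low in the CM lines, at 110 CPM in sum in the lowest line and 117 and 120 CPM in the XY lines, with 1 higher and 2 lower in the iPSCs of 14 tested. The fibroblast genes without Fn1 summed to 3474 to 4429 CPM in the CM lines, within the range of the P13 iPSCs (2860 to 7566 CPM). Y-linked genes without Usp9y were at 6.07% and 9.85% of the CM male level in CM1 and CM2. Of 49 other fibroblast genes 29 were lower in the iPSCs and none was higher, with Mmp3 at -2.04 ± 0.28 and Cav1 (caveolin 1) at -1.56 ± 0.17. The smooth muscle genes split, with 5 lower, led by Actg2 (enteric smooth muscle actin, -3.30 ± 0.51), and 1 higher, Des (desmin, 1.24 ± 0.27), of 12. Collagen maturation genes gave 6 higher and 4 lower of 22, TGF-beta pathway genes 3 and 7 of 14, and basement membrane genes 0 and 3 of 15.

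The WT lines of the withdrawal experiment, labelled as grown without feeders, were not low in fibroblast genes. At 0 h, F121 and V6.5 held Col3a1 at 6.79 and 6.82, Il1rl1 at 6.36 and 6.43, Dcn at 4.34 and 4.27 and Postn at 5.65 and 5.94. All of these values were above those of every CM line, as in 17.8% of all tested genes. In the fit of 4 CM against these 2 libraries, with sex as a covariate, 16 of the 37 genes were lower in the CM lines and 1, Col12a1, was higher (0.75 ± 0.11), where 7.76% of all genes were lower and 10.0% higher. The median difference was -0.43 log2, against -0.016 over all genes. Experiment, line and culture cannot be told apart here.

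The largest of these differences was that of Dcn (-2.21 ± 0.34, limma adjusted p = 0.00462), followed by Tgfbi (a TGF-beta-induced adhesion protein, -0.86 ± 0.22), Igfbp7 (an insulin-like growth factor binding protein, -0.81 ± 0.21) and Il1rl1 (-0.75 ± 0.14). Thbs2 (thrombospondin 2, -0.75 ± 0.20), Postn (-0.71 ± 0.17), Loxl2 (-0.68 ± 0.18), Thy1 (-0.66 ± 0.10) and Prrx1 (-0.53 ± 0.14) were called in the same direction. Col1a1 (7.43 and 7.56 in F121 and V6.5), Vim (8.74 and 8.67), Fn1 (11.26 and 11.41), Acta2 (6.64 and 7.07), Tagln (6.10 and 6.61) and Sparc (8.95 and 8.95) were not called. The count of 17 was 5 without CM1, 11 without CM2, 10 without CM3 and 8 without V6.5.

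Here the macrophage list moved most evenly: all 15 of 15 markers were lower in the CM lines, with sums of 374 CPM in F121 and 294 CPM in V6.5 against the CM sums given above. Fcgr1, an Fc receptor, differed by -3.69 ± 0.54. In the female line F121 at 0 h, Ddx3y stood at 3.22 and Eif2s3y at 2.34. Y-linked genes without Usp9y were at 16.7% of the V6.5 level. That level (111 CPM) was below the male iPSC level (172 CPM), so these shares do not rank across experiments. In CPM, F121 at 0 h (18.5) lay below LV22 at P13 (21.4). Other fibroblast genes gave 19 lower and 4 higher in the CM lines of 52, with Tnc (tenascin C) at -1.33 ± 0.11. Smooth muscle genes went the opposite way, 5 higher and none lower of 12, led by Acta1 (2.47 ± 0.67) and Cnn1 (calponin, 2.34 ± 0.32). Collagen maturation genes gave 7 lower of 22, among them Pcolce, which aids removal of the procollagen tail (-1.06 ± 0.13).

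Among the 6 undifferentiated WT ESC lines, XX against XY with the experiment as a covariate, limma called none of the 37, where 7.19% of all genes were called (4.87% higher and 2.32% lower in XX lines). At an unadjusted p under 0.05 there were 2, and limma with voom weights called none. The median difference was -0.02 log2. Sparc had the most evident one (0.41 ± 0.13, limma adjusted p = 0.0959).

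After 24 h without LIF most fibroblast genes were lower in 3 of the 4 lines. In the fit with the line as a block (n = 4 lines), 11 of the 37 were lower at 24 h and none was higher, where 12.3% of all genes were lower and 12.8% higher. The median change was -0.72 log2, against 0.023 over all genes. By line, 37 genes were lower in V6.5 (median -1.54), 34 in the clone labelled Dusp9+/- 2 (median -0.91) and 33 in F121 (median -1.25). In the clone labelled Dusp9+/- 1, 27 were higher at 24 h (median 0.58). These directions by clone rest on the clone numbers: over 14242 genes the difference between the clones at 0 h correlated with that at 24 h at r = -0.369. With the numbers crossed, 22 and 20 of the 37 were lower at 24 h.

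Il1rl1 stood at 6.36 and 6.43 in F121 and V6.5 and at 3.80 and 5.04 in the clones labelled Dusp9+/- 1 and 2 at 0 h, and at 3.17 and 2.59 and 3.22 and 1.63 at 24 h. No 24 h value reached a 0 h value, as in 8.29% of all tested genes, and the change was -2.76 ± 0.51 (limma adjusted p = 0.0129). Mgp went from 5.57 and 5.61 and 4.40 and 5.95 to 2.92 and 2.38 and 3.56 and 1.79 (-2.72 ± 0.48), also without overlap. Lum changed by -2.39 ± 0.50.

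Prrx1 went from 5.98 and 6.07 in F121 and V6.5 and 3.24 and 4.42 in the clones to 3.45 and 3.45 and 2.67 and 1.55 (-2.15 ± 0.37, limma adjusted p = 0.011). It was lower at 24 h in all 4 lines, but the times overlapped, the library labelled Dusp9+/- 1 being low at 0 h. Col6a1 went from 6.10 and 5.97 and 3.75 and 4.62 to 4.02 and 3.34 and 2.98 and 1.95 (-2.04 ± 0.32), and Col6a2 changed by -1.73 ± 0.29. Pdgfrb, the receptor for platelet-derived growth factor on mesenchymal cells, changed by -1.37 ± 0.31 and Loxl2 by -1.33 ± 0.13. Lower at 24 h in all 4 lines were 10 of the 37, a share near the 22.6% of all genes. They were Col6a1, Col6a2, Fn1, Mgp, Lum, Loxl2, Mmp2, Prrx1, Pdgfrb and Il1rl1, and this set rests on the clone numbers.

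Col3a1 went from 6.79 and 6.82 and 2.27 and 3.76 to 3.79 and 3.35 and 2.72 and 1.42 (-2.09 ± 0.60, limma adjusted p = 0.0462). Col1a1 went from 7.43 and 7.56 and 3.38 and 5.76 to 6.09 and 6.28 and 6.25 and 5.13 (-0.09 ± 0.68, limma adjusted p = 0.932), and it was 2.87 higher at 24 h in the clone labelled Dusp9+/- 1 and lower in the other 3 lines. Its partner Col1a2 changed by -0.91 ± 0.54.

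Dcn went from 4.34 and 4.27 and 0.06 and 1.18 to 1.93 and 1.63 and 0.76 and 0.28 (-1.31 ± 0.54) and Postn from 5.65 and 5.94 and 0.06 and 1.69 to 3.13 and 3.11 and 0.76 and -0.07 (-1.60 ± 0.56). Neither was called, and in both the clones were far below the WT lines at 0 h. Thy1 went from 6.54 and 6.41 and 4.78 and 4.92 to 5.52 and 4.08 and 4.83 and 4.21 (limma adjusted p = 0.0764), and Vim from 8.74 and 8.67 and 7.17 and 8.15 to 7.29 and 7.14 and 7.58 and 6.60 (-1.03 ± 0.33, limma adjusted p = 0.0616).

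Fn1 went from 11.26 and 11.41 and 10.34 and 10.66 to 10.87 and 10.73 and 10.30 and 9.67, a small change of -0.52 ± 0.15 that was called (limma adjusted p = 0.0435). Acta2 and Tagln were not called, with higher values in F121 and the clone labelled 1 and lower values in V6.5 and the clone labelled 2. Acta2 stood at 6.77 and 6.90 in F121 and V6.5 and 6.79 and 5.16 in the clones at 24 h, after 6.64 and 7.07 and 4.23 and 5.89 (0.45 ± 0.49, limma adjusted p = 0.535), and Tagln at 6.39 and 6.59 and 7.20 and 6.53 after 6.10 and 6.61 and 5.61 and 6.78 (0.40 ± 0.28). Sparc (8.49 and 8.02 and 8.71 and 8.59 after 8.95 and 8.95 and 8.02 and 8.26) changed by -0.09 ± 0.25.

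**Figure D5:**
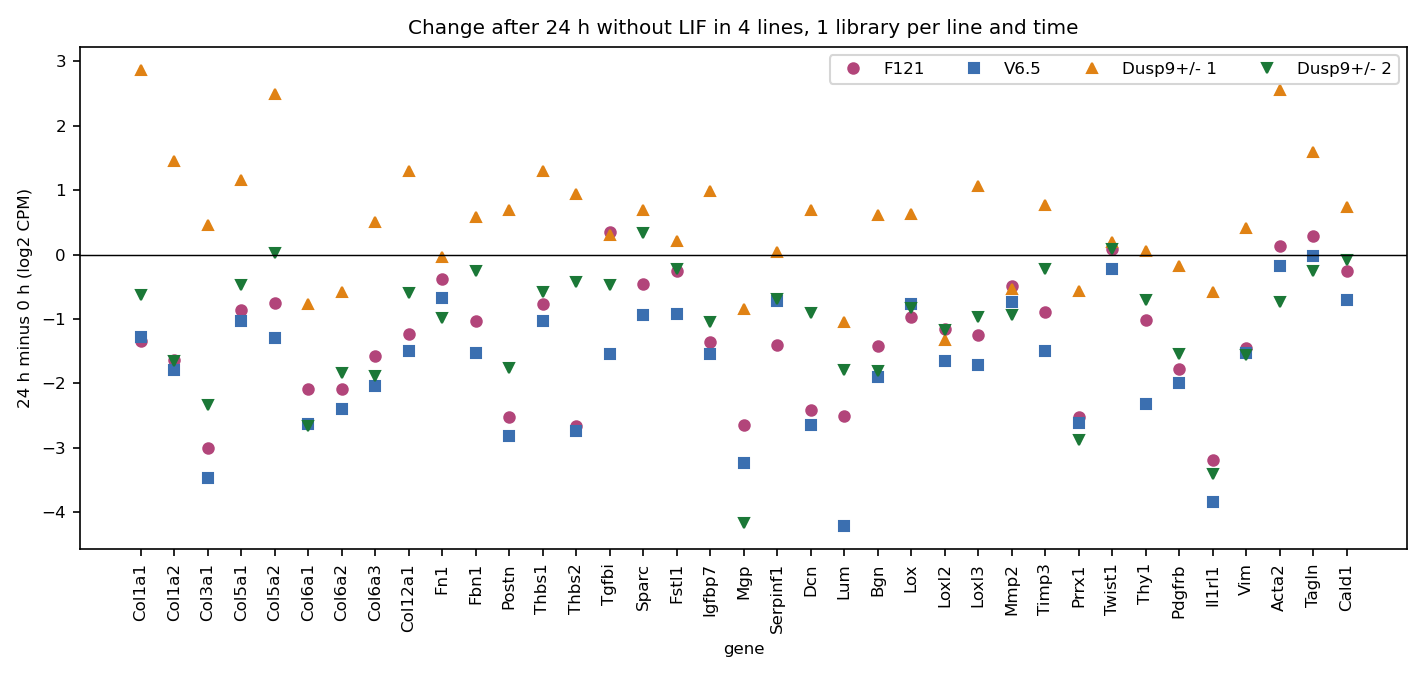
Change of each of the 37 genes between 0 h and 24 h without LIF (log2 CPM difference, 1 library per line and time) in F121, V6.5 and the 2 clones labelled Dusp9+/-. Points below the line at 0 are lower at 24 h. F121, V6.5 and Dusp9+/- 2 lie mostly below it (medians -1.25, -1.54 and -0.91) and Dusp9+/- 1 mostly above it (median 0.58).

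Leaving out the clone labelled Dusp9+/- 1 raised the count from 11 to 29, and leaving out F121 or the clone labelled Dusp9+/- 2 lowered it to 6. Macrophage markers fell: all 15 of 15 were lower at 24 h, in sum from 277 to 392 CPM at 0 h to 58.8 to 102 CPM at 24 h over the 4 lines, with Cd14 at -3.39 ± 0.23 and C1qa at -2.52 ± 0.30. In F121 the Y-linked genes without Usp9y went from 16.7% to 4.87% of the V6.5 level. In the clones they went from 6.19% to 4.49% and from 10.8% to 1.47%. In V6.5 itself the sum was 109 CPM at 0 h and 113 CPM at 24 h. Limma called none of the 5 tested Y-linked genes, with 3 at an unadjusted p under 0.05. Usp9y was left out of these sums because it held 11 to 23 reads in the female libraries of this experiment and 1 and 3 in the male line V6.5. Kdm5d was kept, although at 0 h it held 28 reads in F121 and 23 in V6.5. The sums thus include reads that did not separate the sexes here.

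Other fibroblast genes gave 13 lower and 1 higher at 24 h of 49, with Mmp3 at -3.53 ± 0.49 and Pdgfra (the other receptor chain for platelet-derived growth factor) at -2.11 ± 0.39. Of 22 collagen maturation genes 4 were lower and 1 higher, with P4ha1 at -1.21 ± 0.15. Basement membrane genes gave 3 lower and 1 higher of 12, led by the laminin chain gene Lama1 (-2.19 ± 0.19). Of 12 smooth muscle genes 2 were higher, among them Myl9 (a myosin light chain, 0.84 ± 0.17), and 1, Des, was lower (-0.80 ± 0.21). TGF-beta pathway genes gave 1 higher, the repressor gene Skil (1.33 ± 0.16), and 3 lower of 14.

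At 0 h the clones labelled Dusp9+/- held lower levels of many fibroblast genes than F121, in calls that depended on the filter. Of the 37, 15 were lower and none was higher, where 4.10% of all genes were lower and 4.81% higher (8.91% in all). The median difference was -1.89 log2, against -0.0051 over all genes. With 2 clones against the single F121 library, the spread comes from the clones at both times and F121 is assumed to vary like them.

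Postn stood at 0.06 and 1.69 in the clones against 5.65 in F121 (-4.77 ± 0.68, limma adjusted p = 0.0241), Dcn at 0.06 and 1.18 against 4.34 (-3.72 ± 0.50) and Col3a1 at 2.27 and 3.76 against 6.79 (-3.77 ± 0.72). In all 3 the clone labelled 1 was the lower. Across the 4 libraries at 0 h that clone was lowest for 34 of the 37 genes, and V6.5 was highest for 20 and F121 for 13. Col5a2 (-3.26 ± 0.63), Igfbp7 (-3.04 ± 0.61), Thbs2 (-2.87 ± 0.42), Lox (-2.69 ± 0.43) and Fbn1 (fibrillin 1, -2.16 ± 0.24) were also called.

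Col1a1 stood at 3.38 and 5.76 in the clones against 7.43 and was not called (-2.86 ± 0.94, limma adjusted p = 0.106). Prrx1 (3.24 and 4.42 against 5.98, -2.15 ± 0.60) and Il1rl1 (3.80 and 5.04 against 6.36, -1.94 ± 0.73) were not called either. The clones differed from each other by over 1 log2 in each, as they also did in Postn, Dcn and Col3a1, which were called. Mgp was not low: it stood at 4.40 and 5.95 in the clones against 5.57 (-0.40 ± 0.85). The count of 15 became 1 with no filter on low values and 26 without the clone labelled 2.

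Of all tested genes 41.3% were lower in both clones than in F121 at 0 h. In the macrophage list 10 of 15 were, with 1 higher in both, and the list had a median difference of -0.35 log2. Limma called none of its 15 genes between the clones and F121 at 0 h (4 at an unadjusted p under 0.05), and its sums were 277 and 392 CPM in the clones against 374 CPM in F121. Of 49 other fibroblast genes 9 were lower and 2 higher, with Tnc at -3.14 ± 0.50 and Cdh11 at -3.10 ± 0.50. The collagen maturation list gave 4 lower of 22, led by the collagen-degrading protease gene Ctsk (-2.72 ± 0.36). The TGF-beta pathway gave 1 higher (Skil), the smooth muscle list 1 higher (Des, 1.32 ± 0.28) and the basement membrane list 3 lower. The mesoderm factor gene Hand1 was higher (3.58 ± 0.35).

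At 24 h, 1 of the 37 was lower in the clones than in F121, Tgfbi (-1.94 ± 0.29, limma adjusted p = 0.0412), where 0.984% of all genes were lower and 1.57% higher (2.55% in all). The median difference was -0.80 log2. Postn stood at 0.76 and -0.07 against 3.13 (-2.78 ± 0.68, limma adjusted p = 0.085) and Col3a1 at 2.72 and 1.42 against 3.79 (-1.72 ± 0.72). Tgfbi itself stood at 4.53 in F121 at 24 h, above its 4.18 at 0 h, while 33 of the 37 were lower there. The call was lost without the clone labelled 2, and without the clone labelled 1 there were 2 calls. With no filter on low values and with voom weights there were 0 (limma adjusted p for Tgfbi 0.088 and 0.0535).

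Within a library the log2 ratio of Col6a1 to Col6a2 reads, 2 chains of type VI collagen, had a median of 0.69 and an SD of 0.28 over the 24 libraries, with values from 0.22 to 1.20. The SD was 0.43 for Col6a3 to Col6a1, 0.74 for Col5a1 to Col5a2 and 0.68 for Acta2 to Tagln. In the iPSC libraries the log2 ratio of Col5a1 to Col5a2 stood at 1.83 to 2.39 at P7 and at 0.74 to 0.99 at P13. That of Acta2 to Tagln stood at -0.95 to 0.17 at P7 and at 0.35 to 0.68 at P13. The log2 ratio of Col1a1 to Col1a2 had a median of 0.13 and an SD of 0.24 over the 12 iPSC libraries and stood at 0.21 to 0.47 in the 4 CM libraries. In the 8 withdrawal libraries it ran from 0.02 in V6.5 at 0 h to 1.95 in the library labelled Dusp9+/- 2 at 24 h, and the library labelled Dusp9+/- 1 at 24 h stood at 1.89. Against Col3a1, the log2 ratio of Col1a2 had an SD of 0.55 and that of Prrx1 0.55 over the 24 libraries, whereas Fn1 had 1.36 and Twist1 1.86. Since Col3a1 itself spans 6.12 log2, a gene that varies little has a large SD of this ratio in any case. Fn1 spans 1.93 and Twist1 2.30, against 5.53 for Col1a2 and 5.05 for Prrx1. These ratios share depth and library, and they are descriptions.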

How the data were processed

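The authors deposited 1 table of log2 CPM values for 16687 genes in 24 RNA libraries, per the file headers. Per the labels' protocols, RNA was extracted with TRIzol and sequenced from stranded mRNA libraries as single reads. Among tools, STAR (2.5.3a), featureCounts and edgeR appear, with no roles given, per the submitters' processing notes. Whether technical repeats were combined is not given in the sources used here. The values recovered to whole reads for 100% of entries within 0.01 reads, 8309171 to 14245900 per library.

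The deposited log2 values were fitted in R 4.3.3 by limma 3.58.1, whose eBayes step used a mean-variance trend. Each fit tested genes whose average in its own libraries was at least 1 CPM above the floor of 0.183 CPM. Tests were two-sided, with Benjamini-Hochberg adjustment over all tested genes. The method was tested on simulated data with a single fixed spread for all genes and no line effects. That test does not measure error rates at the spread of these libraries. The iPSC fits had 4 group means, and line was a block only for withdrawal. P13 and P7 libraries share a line, so the line numbers pair them by cell line; deviations of the 2 passages from their group means correlated at -0.0365 to 0.1028. For the Dusp9+/- clones the difference between clones correlated at -0.369 between times. Where nothing says that libraries came from separate cultures, p-values measure only the spread between these samples. The members and lists were chosen with earlier results of these data known. Values in every library are printed for 12 members and up to 8 called members with the largest change, and from each other list up to 4 called genes, with a group mean of at least 4 CPM. Chromatin samples were not analysed here.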

Additional observations from a re-analysis of the deposited data

How the results depend on the processing

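Counts are members called in limma. No called change reversed direction in any alternative run. Some small changes that were not called did, such as that of Col1a1 at 24 h when F121 was left out. With no filter on low values the female P13 against P7 count was 8, that of the clones labelled Dusp9+/- against F121 was 1 at 0 h and 0 at 24 h. With voom weights on recovered reads, an alternative chosen after seeing the data, the female count was 9 and the 24 h clone count 0. Leaving out LV21 at P7 and LV22 at P13 gave 2 for female against male at P7. With line as a replicate block the passage counts were 26 in male and 17 in female lines and 0 for their difference, and withdrawal without the block gave 16. Crossing the clone numbers, also chosen after seeing the data, gave 16 for withdrawal. Leaving out 1 library gave 17 to 31 for male and 3 to 25 for female P13 against P7 (4 without LV20 or LV22 at P7 or LV22 at P13), 0 to 1 for female against male at P7, 5 to 15 for CM against WT withdrawal lines (11 without CM2, 10 without CM3), 0 to 2 for XX against XY, 6 to 29 for withdrawal, and 13 to 26 and 0 to 2 for the clones at 0 h and 24 h. Where an arm then had 1 library, it was assumed to vary like the others. The count tools planned as alternatives were not run, since the values were deposited on a log scale. The causes were not tested. Depth limits the lowest members, as for Lum at 0 reads in V6.5 at 24 h.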
